A study of Mus musculus with 6 samples.

Results

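The cells described here are those that the authors' annotation of single mouse heart cells names Mo, the only myeloid cluster not called Mac1 to Mac4. They number 696 of 21706 cells, of which 134 came from the library YAP5SA tissue-1, 280 from YAP5SA tissue-2, 132 from YAP5SA enriched, 84 from Control tissue-2 and 66 from Control tissue-3. Control enriched held 0 Mo cells among its 1405 cells, which allows a share of up to 0.214%. The cells were profiled by Drop-seq, which tags the 3' ends of transcripts with a barcode for each droplet and a molecular identifier (UMI) for each captured molecule. YAP5SA mice carried the strain label Yap5SA+/tg; Myh6-MCM, and Control mice carried Myh6-MCM, the tamoxifen-activated Cre recombinase MerCreMer driven by the cardiomyocyte gene Myh6. All mice were adult and had been given tamoxifen. YAP5SA is a form of the Hippo pathway coactivator YAP that the Lats kinases cannot phosphorylate, and it was switched on in cardiomyocytes, not in the cells described here. Tissue libraries put the cardiomyocyte and the other fractions of a collagenase-digested heart together again, and enriched libraries held the gravity-settled cardiomyocyte fraction. Each genotype had 2 tissue libraries and 1 enriched library, so that the genotypes were compared in Mo cells over 3 YAP5SA and 2 Control libraries. The labels do not say whether the libraries came from separate animals, and p-values measure the spread between these libraries.

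Monocytes are blood cells made in the bone marrow that enter tissues and can become macrophages or antigen-presenting cells there. Ly6c2 and Plac8 mark the classical monocytes of mouse blood, and Ccr2, the receptor for the chemokine Ccl2, is needed for their exit from the marrow and their entry into tissue. In the mouse heart, Ccr2 separates macrophages that are renewed from blood monocytes from residents that keep themselves. Major histocompatibility complex (MHC) class II proteins present peptides from taken-up protein to CD4 T cells, and are made by dendritic cells, B cells and a share of macrophages.

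The 6 libraries held between 3382656 and 13483791 UMIs, and the Mo cells of a library held between 76773 and 509384. The median Mo cell had 1174.5, 1414.5 and 1100.5 UMIs in the YAP5SA libraries tissue-1, tissue-2 and enriched, against 1041.5 and 1036.5 in Control tissue-2 and tissue-3. Control tissue-3 stood apart in the UMIs of mitochondrial genes, which made up 17.8% of those of its median Mo cell, against 2.56% in Control tissue-2 and 3.24%, 2.79% and 6.46% in the YAP5SA libraries. The macrophages of Control tissue-3 had 17.7%. No cell barcode of a Mo cell occurred in another library, and any 2 libraries shared at most 2 barcodes. In 4 libraries (YAP5SA tissue-1 and tissue-2, Control tissue-2 and enriched) the names of overlapping genes were joined, and in YAP5SA enriched and Control tissue-3 they were separate, so that each way of annotation holds Mo cells of both genotypes. Doublets, droplets with more than 1 cell, were not removed here.

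Of the 3 monocyte markers, Ccr2 fitted the name of the cluster and Plac8 and Ly6c2 did so in part. To compare cells of different depth, each cell was thinned to 750 UMIs, and cells with fewer were left out. A Ccr2 UMI was then found in 61.2%, 56.7% and 55.6% of Mo cells of the YAP5SA libraries tissue-1, tissue-2 and enriched, and in 53.2% and 18.2% of those of Control tissue-2 and tissue-3. Among cardiomyocytes of the same libraries, which do not express Ccr2, the share was 0.0853% to 1.08% at median depths of 1876 to 4595 UMIs before thinning. Ccr2 reached 1184, 1213 and 1401 CPM (a gene's share of the UMIs on a common scale, here with Mo and macrophage sums scaled together by TMM, the trimmed mean of M-values) in Mo cells of the YAP5SA libraries and 1039 and 227 CPM in those of the Control libraries. In the summed macrophages of the same libraries it had 143, 240.3 and 218 CPM in YAP5SA and 255 and 19.9 CPM in Control, so that it was higher in Mo cells in all 5 libraries, and lower in Control tissue-3 than in the other 4 libraries in both.

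Plac8 was found in 6.61%, 14.4% and 8.73% of thinned Mo cells of the YAP5SA libraries, and in 7.59% and 0% of those of Control tissue-2 and tissue-3. The unthinned shares were 11.9%, 20.7% and 10.6% in YAP5SA and 8.33% and 0% in Control. Plac8 averaged 327 ± 73.5 CPM without TMM scaling in Mac3 (SD, n = 4 libraries), against 138 ± 102 CPM in Mo cells (SD, n = 5 libraries). Control tissue-3, with 6 Mac3 cells, is in the second mean alone. In the YAP5SA libraries tissue-1, tissue-2 and enriched, Mac3 had 267, 289 and 321 CPM, against 110, 283 and 126 CPM in Mo cells. In Control tissue-2 it had 432 CPM, against 171 CPM in Mo cells. Ly6c2 was found in 0% to 7.22% of thinned Mo cells, with a median of 2.53% over libraries. In Control tissue-3, Plac8 and Ly6c2 had 0 UMIs in 66 Mo cells, which allows up to 39.1 CPM for each gene. At most 1.08% of thinned cardiomyocytes held either gene, while thinned fibroblasts held Plac8 in up to 2.33% and Ly6c2 in up to 1.26%. Plac8 in Mo cells of the other 4 libraries lay above both backgrounds, and Ly6c2 was close to them in YAP5SA enriched, with 3 UMIs in all. In Control tissue-2 Ly6c2 also rested on 3 UMIs, in 84 Mo cells.

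What marked the Mo cells most was MHC class II. A UMI of H2-Aa, H2-Ab1 or H2-Eb1 was found in 89.3%, 84.0% and 89.7% of thinned Mo cells of the YAP5SA libraries and in 96.2% and 100% of those of the Control libraries. In Mac1 to Mac4 the share ranged from 0% to 28.6% over clusters and libraries, and in cardiomyocytes from 0.906% to 2.51%. A UMI of Flt3, Zbtb46, Cd209a or Xcr1, which mark dendritic cells, was found in 1.14% to 5.06% of thinned Mo cells. The share was at most 2.38% in Mac1 to Mac4 and 1.20% in cardiomyocytes. A longer dendritic list summed to 5086, 5363 and 6142 CPM (without TMM scaling) in YAP5SA Mo cells, against 2586, 3360 and 3334 CPM in macrophages. In Control it had 4687 and 6812 CPM, against 4230 and 6517 CPM. The list includes Cst3, which had 3938 to 7679 CPM in Mo cells and 2167 to 8011 CPM in macrophages (scaled together). The neutrophil gene S100a9 had 0 UMIs in Mo cells, and S100a8 was found in at most 0.380% of thinned Mo cells of any library. A UMI of the whole neutrophil list was found in 0% to 19.7% of thinned Mo cells. For that list the share was 1.43% to 6.65% in cardiomyocytes and 6.46% to 32.2% in fibroblasts. A list of T and NK cell genes was found in 1.52% to 6.33% of thinned Mo cells, and in up to 11.8% of Mac4 cells. Complement C1q genes, which macrophages make, were found in 62.7% to 81.8% of thinned Mo cells, against 3.58% to 18.6% of cardiomyocytes and 73.5% to 100% of the cells of Mac1 to Mac4, and 55.5% to 77.3% of Mo cells held both C1q and MHC class II transcripts. The data thus go in part against the name monocyte, and the cells are called Mo cells below.

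The deposited table of cells also holds the names of an earlier clustering by the authors, and by these the Mo cells were a mixture that differed between the genotypes. The earlier cluster Mo1 supplied 448 Mo cells, or 64.4%, of which 100, 202 and 99 were in the YAP5SA libraries tissue-1, tissue-2 and enriched, and 37 and 10 in Control tissue-2 and tissue-3. The earlier cluster Mo2 supplied 68, all from YAP5SA libraries, while 501 of its 592 cells now stand in Mac1. An earlier macrophage cluster Mac6 supplied 55 Mo cells, of which 54 were from Control tissue-3, and an earlier Mac5 supplied 42, of which 40 were from Control tissue-2. So Mo1 was the largest earlier source in each YAP5SA library, while in Control tissue-3 it was Mac6, with 54 of 66 cells, and in Control tissue-2 Mac5 and Mo1 supplied 40 and 37 of 84.

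**Figure D1:**
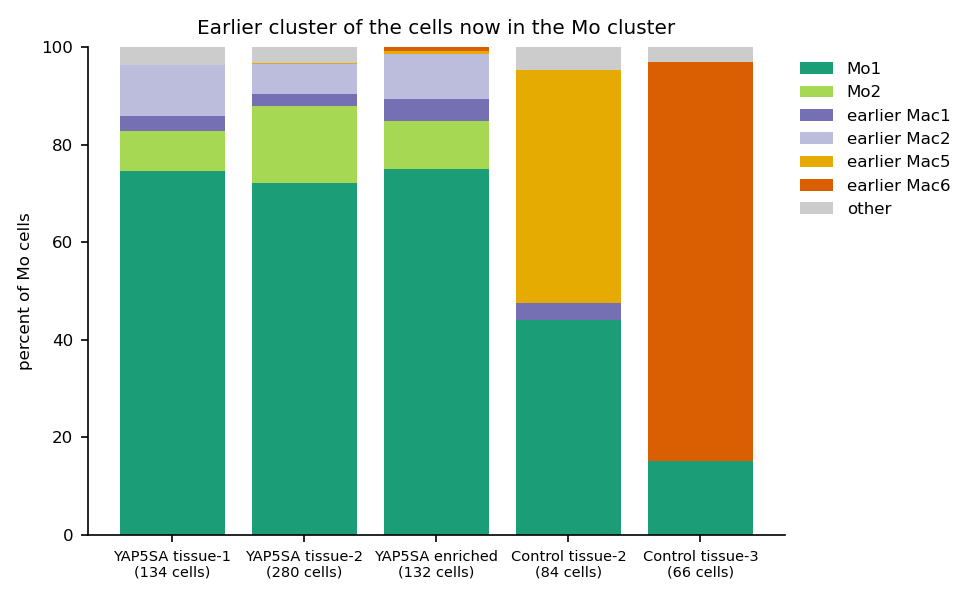
Share of the Mo cells of each library (horizontal axis, YAP5SA libraries left of Control libraries) by the authors' earlier cluster (colours), in percent of the library's Mo cells. Mo1 supplied 448 of 696 Mo cells, the earlier Mac6 supplied 54 cells of Control tissue-3, and the earlier Mac5 supplied 40 of Control tissue-2.

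The earlier groups differed in what they held. H2-Eb1, a beta chain of MHC class II, had 2179, 2177 and 1992 CPM (without TMM scaling) in the Mo1 cells of the YAP5SA libraries tissue-1, tissue-2 and enriched, and 3887 and 3914 CPM in those of Control tissue-2 and tissue-3. In the Mo2 cells it had 67.5, 191 and 0 CPM in the same YAP5SA libraries. In the Mo cells from all other earlier clusters it had 203, 589 and 351 CPM in YAP5SA and 876 and 1923 CPM in Control. H2-Eb1 was thus highest in Mo1 cells in each of the 5 libraries. Lyz2, the lysozyme gene of myeloid cells, had 19167, 14294 and 11456 CPM in Mo2 cells of the YAP5SA libraries tissue-1, tissue-2 and enriched, against 10264, 8752 and 11946 CPM in Mo1 cells of these libraries. Dcn, a matrix gene of fibroblasts, reached 7813 CPM in the other Mo cells of Control tissue-3, against 587 CPM in its 10 Mo1 cells.

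Set against Mac1 to Mac4 of the same libraries, Mo cells had higher levels of a small group of genes, led by MHC class II. The cluster was made from these transcripts, so the levels are a description and no test was run. Of 3580 genes with at least 50 UMIs in Mo cells, 28 were at least 2-fold higher in Mo cells than in the summed macrophages in every one of the 5 libraries (0.782%), and of 11256 genes with at least 50 UMIs in macrophages, 77 were at least 2-fold lower in every library (0.684%). The lower count leans on the prior count of 2, which was scaled to the size of each sum. Small sums thus received less than 2 UMIs, and large ones more. At the macrophage share, 47 of the 77 would have under 3 UMIs in the Mo cells of at least 1 library, and 30 would have 3 or more in every library. The lower count was 120 without Control tissue-2 and 170 without Control tissue-3. Some of the 28 higher genes also rest on few UMIs in Control tissue-3. Ccl17 had 25.2 CPM (2 UMIs) in Mo cells there, against 0 CPM in macrophages. Its weakest log2 ratio, 4.19, is this one. Timp1, Emb and Ramp1 also had 25.2 against 0 CPM there, and H2-DMb2 and Cd24a had 37.8 against 0 CPM. With the Mo1 cells alone, 15 genes were that much higher, all 15 among the 28, and 222 were lower. The 15 genes with the highest lowest-library ratio were H2-Eb1, Ccl17, H2-Ab1, H2-Aa, H2-DMb2, H2-DMb1, Cytip, Cd74, Plbd1, Tnip3, Clec4b1, Ccr2, H2-DMa, Cd24a and Gm2a.

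The 4 genes H2-Eb1, H2-Aa, H2-DMb1 and H2-DMb2, all on chromosome 17, stood among the first 6 of that order, and their promoters are shown because they were high together in Mo cells. H2-Ab1, also among the first 6, had no promoter in the set searched. Each stretch runs from 250 bases before to 50 bases after the start of the gene in RefSeq on GRCm38.p6, a build that is not known to be the one used for the counts. The capitals mark 2 patterns searched on both strands, ATGATGC (reverse GCATCAT) and TGATTGG (reverse CCAATCA), the second of which holds the reversed CCAAT sequence that lies in the Y box of MHC class II promoters. The patterns do not overlap each other.
H2-Eb1 (chr17:34305617-34305916, + strand): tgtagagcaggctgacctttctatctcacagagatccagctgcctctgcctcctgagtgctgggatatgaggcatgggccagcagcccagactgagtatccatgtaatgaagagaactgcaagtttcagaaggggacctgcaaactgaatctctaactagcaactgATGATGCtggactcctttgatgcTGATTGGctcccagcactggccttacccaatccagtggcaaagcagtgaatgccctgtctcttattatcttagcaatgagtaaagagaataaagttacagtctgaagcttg
H2-Aa (chr17:34287774-34288073, - strand): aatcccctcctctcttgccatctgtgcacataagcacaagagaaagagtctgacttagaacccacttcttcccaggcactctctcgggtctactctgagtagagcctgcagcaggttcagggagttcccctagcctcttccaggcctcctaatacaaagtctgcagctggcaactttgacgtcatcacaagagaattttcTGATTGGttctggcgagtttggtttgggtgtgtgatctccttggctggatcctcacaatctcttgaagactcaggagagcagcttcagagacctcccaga
H2-DMb1 (chr17:34152941-34153240, + strand): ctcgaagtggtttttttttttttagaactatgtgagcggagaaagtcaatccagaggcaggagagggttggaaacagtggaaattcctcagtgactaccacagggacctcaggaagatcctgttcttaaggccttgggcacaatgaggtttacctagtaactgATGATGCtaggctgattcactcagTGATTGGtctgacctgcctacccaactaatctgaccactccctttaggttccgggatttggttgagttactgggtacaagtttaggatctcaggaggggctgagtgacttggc
H2-DMb2 (chr17:34144999-34145298, + strand): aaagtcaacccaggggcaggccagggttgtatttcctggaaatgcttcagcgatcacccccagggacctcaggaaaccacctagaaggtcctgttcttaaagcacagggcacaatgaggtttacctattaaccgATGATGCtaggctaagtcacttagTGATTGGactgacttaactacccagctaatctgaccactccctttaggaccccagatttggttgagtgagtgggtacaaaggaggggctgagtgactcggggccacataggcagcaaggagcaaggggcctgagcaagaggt
Counted from the start of the gene, TGATTGG begins at -61 in H2-Eb1, -50 in H2-Aa, -63 in H2-DMb1 and -92 in H2-DMb2, and ATGATGC at -84, -87 and -116 in H2-Eb1, H2-DMb1 and H2-DMb2. H2-Aa does not hold ATGATGC in this window. Of 8 H2 genes of the class II list with a promoter in the table, 7 hold TGATTGG and 4 hold ATGATGC. Among all 32851 promoters of the same length, 2568 hold TGATTGG (7.82%), 808 hold ATGATGC (2.46%) and 57 hold both (0.174%). A match is a description of the letters and not evidence of a bound factor.

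In Mo cells, H2-Eb1 had 1522, 1626 and 1563 CPM (Mo and macrophage sums scaled together) in the YAP5SA libraries tissue-1, tissue-2 and enriched, and 1933 and 2118 CPM in Control tissue-2 and tissue-3. In macrophages it had 3.30, 9.19 and 2.44 CPM in the YAP5SA libraries and 16.8 and 79.6 CPM in the Control libraries. The ranges did not overlap, and the log2 ratio of Mo cells over macrophages ran from 4.71 in Control tissue-3 to 8.65 in YAP5SA enriched. H2-Aa, the alpha chain that pairs with H2-Ab1, had log2 ratios of 3.46 to 8.12, and H2-Ab1 of 3.66 to 7.21. Cd74, the invariant chain that guards the peptide groove on the way to the endosome, had log2 ratios of 2.96 to 4.92. H2-DMa, H2-DMb1 and H2-DMb2 form the H2-DM complex, which loads peptides onto class II, and had median log2 ratios of 2.49, 3.64 and 3.75. Of the 10 members of the MHC class II list with enough UMIs in either population, 8 were above macrophages in every library and 1 was below, with a median log2 ratio of 3.70. Over all 11257 genes, 278 were above in every library (2.47%), 1561 were below (13.9%), and the median log2 ratio was -0.18.

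**Figure D2:**
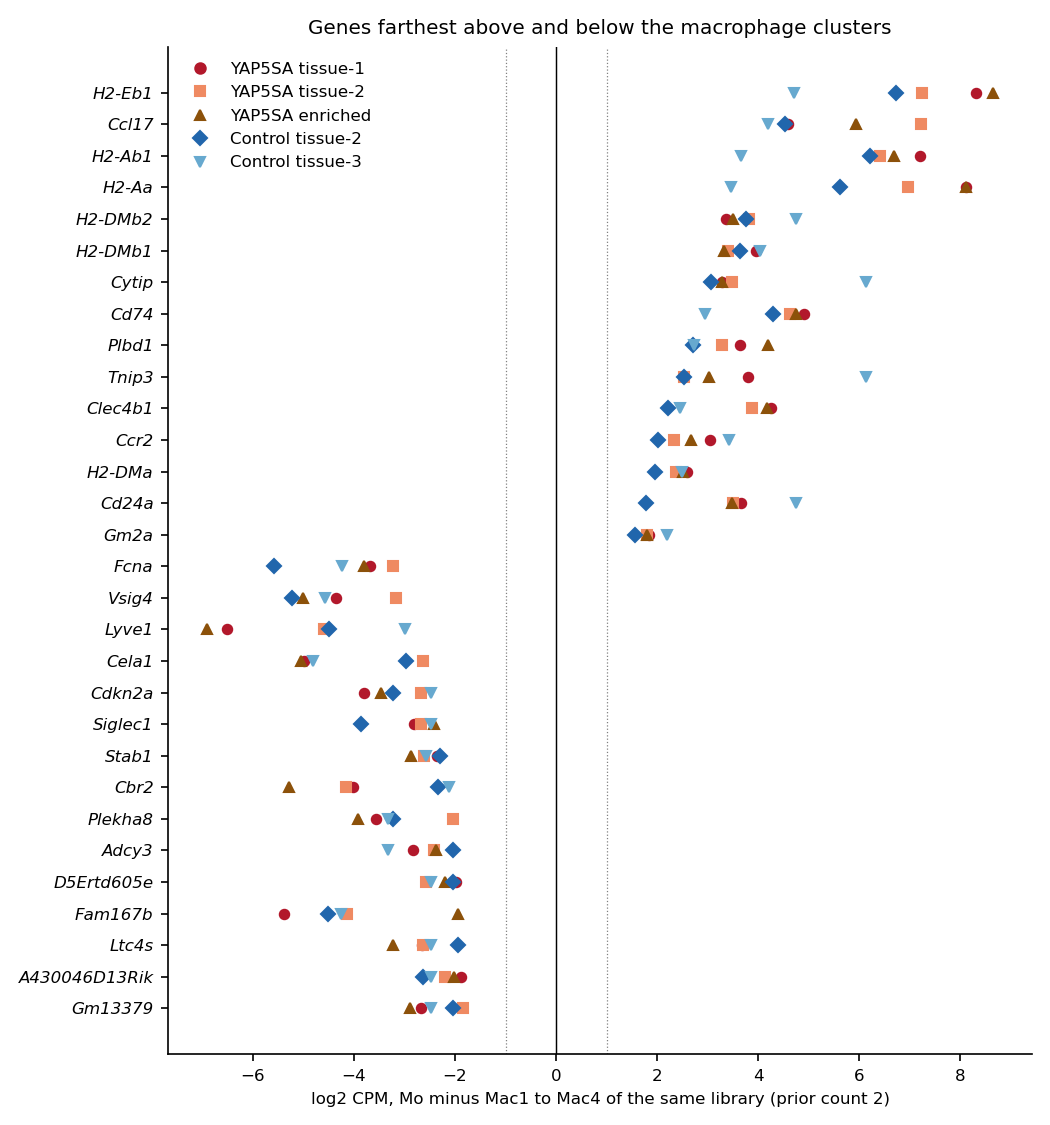
Log2 ratio of Mo cells over the summed Mac1 to Mac4 cells of the same library (1 point per library) for the genes with the highest and lowest ratios, on CPM scaled together. H2-Eb1 lies between 4.71 and 8.65, and Lyve1 between -6.90 and -2.996.

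The other leading genes had several roles. Ccl17, a chemokine that draws Ccr4-bearing T cells, had 121, 790.5 and 163 CPM (scaled together) in Mo cells of the YAP5SA libraries tissue-1, tissue-2 and enriched, and 68.0 and 25.2 CPM in those of Control tissue-2 and tissue-3, against 0 to 3.80 CPM in macrophages. It was uneven: only 1.52% to 11.4% of thinned Mo cells held a Ccl17 UMI, and 396 of its 466 UMIs lay in the Mo1 cells of YAP5SA tissue-2. Thinned cardiomyocytes held it at 3.93%, 3.58% and 2.71% in the YAP5SA libraries tissue-1, tissue-2 and enriched and at 0% in both Control libraries, where the Mo cells of the same libraries had 4.96%, 11.4% and 6.35% in YAP5SA and 3.80% and 1.52% in Control. Plbd1, a phospholipase-like protein of myeloid granules, had a log2 ratio of 2.72 to 4.19, and the C-type lectin Clec4b1 one of 2.22 to 4.27. Cytip binds cytohesin at the membrane of blood cells, and had 58.0 to 213 CPM in Mo cells over the 5 libraries, against 0 to 17.6 CPM in macrophages. Among the rest of the 28 were Il1b, the inflammatory cytokine interleukin-1 beta (log2 1.53 to 2.36), the beta-glucan receptor Clec7a (1.55 to 3.05), and Vcan, a proteoglycan known from classical monocytes (1.45 to 2.13). They also included the matrix genes Col6a1 and Col5a1 and the stromal genes Ccdc80, Cd34 and Timp1. Beside these, 4 of 8 fibroblast markers were above macrophages in every library, with a median log2 ratio of 1.03. The summed fibroblast markers had 752, 2364 and 417 CPM (without TMM scaling) in Mo cells of the YAP5SA libraries and 1537 and 16959 CPM in those of Control tissue-2 and tissue-3, and their part in these genes was not tested.

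Of the markers, 4 of 17 in the monocyte list were above macrophages in every library, with a median log2 ratio of 0.51: Ccr2, Vcan, S100a4 (0.12 to 1.15) and Thbs1 (0.68 to 2.80). Napsa, an aspartic protease of monocytes and dendritic cells, had a median log2 ratio of 3.60 over the libraries, and 0 UMIs in Mo cells of Control tissue-3. Itgax, the integrin CD11c of dendritic cells and some macrophages, had 101 CPM in all Mo cells and 8.66 CPM in all macrophages (without TMM scaling). It had 114, 146 and 90.6 CPM (TMM scaling over the Mo sums) in YAP5SA Mo cells, from 20, 67 and 14 UMIs. In Control Mo cells it had 11.8 and 59.6 CPM, from 1 and 3 UMIs (adjusted p = 0.447 in edgeR). F13a1, coagulation factor XIII of monocytes and resident macrophages, had log2 ratios of -2.54 to -1.83. Among dendritic markers, 1 of 8 was above in every library, Naaa (0.80 to 2.32), with a median of 0.56 over the list.

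**Figure D3:**
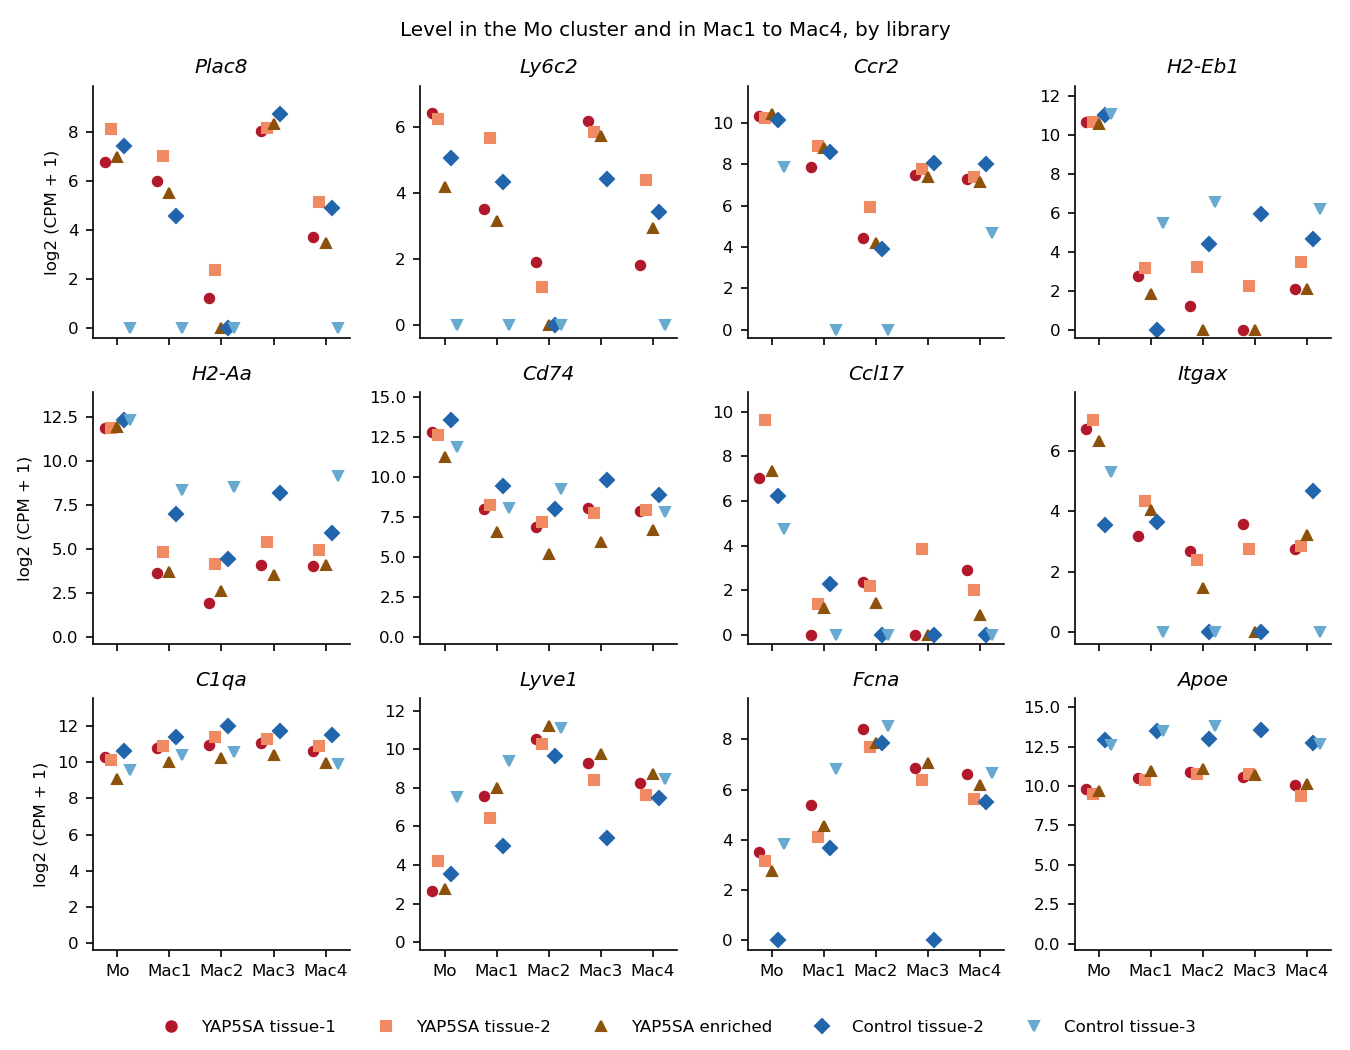
Levels of marker genes (1 panel each) in Mo cells and in Mac1 to Mac4 (horizontal axis), as log2(CPM + 1) without TMM scaling, with 1 point per library. H2-Eb1 averaged 1827 CPM in Mo cells and at most 24.7 CPM in a macrophage cluster, and Plac8 averaged 138 CPM in Mo cells and 327 CPM in Mac3.

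Genes of resident macrophages were lower in Mo cells. Of 20 macrophage markers, 18 were below macrophages in every library, with a median log2 ratio of -1.53. Lyve1, the hyaluronan receptor of resident macrophages around vessels, had 4.83, 17.6 and 5.81 CPM (scaled together) in Mo cells of the YAP5SA libraries tissue-1, tissue-2 and enriched, and 9.71 and 176 CPM in those of Control tissue-2 and tissue-3. In macrophages Lyve1 had 570.3, 459 and 869 CPM in the YAP5SA libraries and 249 and 1419 CPM in the Control libraries, so that the ranges did not overlap. Most of the Lyve1 of macrophages lay in Mac2, which averaged 1614 ± 646 CPM without TMM scaling (SD, n = 5 libraries). Stab1, a scavenger receptor, had a median log2 ratio of -2.58 over the libraries, and Fcna, a lectin of the complement system, one of -3.81. Vsig4, a complement receptor of resident macrophages, had 1 UMI in all Mo cells, against 424 in macrophages, whose summed UMIs are far more. At the macrophage share of UMIs the Mo cells would hold 34.5. Siglec1, the sialoadhesin of tissue macrophages, had 5 UMIs in Mo cells, against 38.7 at the macrophage share and 521 in macrophages. For Siglec1 that share gives 3 or more UMIs in only 3 of the 5 libraries.

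Among the 15 lowest genes were also Cela1, Cdkn2a, Cbr2, Plekha8, Fam167b and Ltc4s. The macrophage share gives 3 or more UMIs in only 2 libraries for Cdkn2a, and in 3 for Plekha8 and for Fam167b. The rule also placed Adcy3, D5Ertd605e, A430046D13Rik and Gm13379 among the 15 lowest, with 0 UMIs in Mo cells and 62 to 87 UMIs in macrophages. At the macrophage share of UMIs the Mo cells would hold only 5.21 to 7.14 UMIs of each over the 5 libraries, so that the depth cannot place these 4 genes among the lowest. C1qa, a subunit of C1q, averaged 1049 ± 405 CPM in Mo cells (SD, n = 5 libraries, without TMM scaling), against cluster averages of 1692 to 2360 CPM in Mac1 to Mac4. Lysosome genes were below macrophages in every library in 15 of 23 cases and above in 0. Genes of the G2/M phase of the cell cycle were below in 37 of 53 cases, with a median log2 ratio of -0.87. The macrophage sum includes Mac4, in which 100% of thinned cells held an S or G2/M phase UMI in every library.

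Mo cells made up 3.49%, 4.78% and 2.89% of all cells in the YAP5SA libraries tissue-1, tissue-2 and enriched, against 2.88%, 2.12% and 0% in Control tissue-2, tissue-3 and enriched. The means were 3.72 ± 0.965% in YAP5SA and 1.67 ± 1.49% in Control (SD, n = 3 each). The difference of 2.05 percentage points had p = 0.167 in an exact two-sided permutation test with genotype permuted within preparation, which is the smallest p its 12 arrangements allow. All YAP5SA shares were above all Control shares, the closest being 2.89% in YAP5SA enriched (95% Clopper-Pearson interval 2.42% to 3.42%) and 2.88% in Control tissue-2 (2.31% to 3.56%), whose intervals overlap. The intervals cover counting error only. Among cells that are not cardiomyocytes the shares were 3.83%, 5.02% and 3.71% in YAP5SA and 3.59%, 3.40% and 0% in Control, where Control enriched held only 337 such cells (difference 1.85 points, exact p = 0.167). Without Control enriched the difference was 1.22 points of all cells and 0.689 points of cells that are not cardiomyocytes (exact p = 0.333 for each).

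Set against macrophages instead of all cells, the direction was the opposite. Of Mo cells and macrophages together, Mo cells were 6.86%, 8.26% and 6.74% in the YAP5SA libraries, against 12.3% and 30.8% in Control tissue-2 and tissue-3. Control enriched held neither kind of cell. The means were 7.29 ± 0.844% (SD, n = 3) in YAP5SA and 21.6 ± 13.1% (SD, n = 2) in Control, and the difference of -14.3 points had an exact p of 0.167, the smallest that 6 arrangements allow. Macrophages numbered 1818, 3110 and 1827 in the YAP5SA libraries and 601 and 148 in Control tissue-2 and tissue-3. Without Control tissue-3 the difference was -4.98 points. The shares describe cells captured after digestion and settling, and numbers of cells in the heart were not measured.

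**Figure D4:**
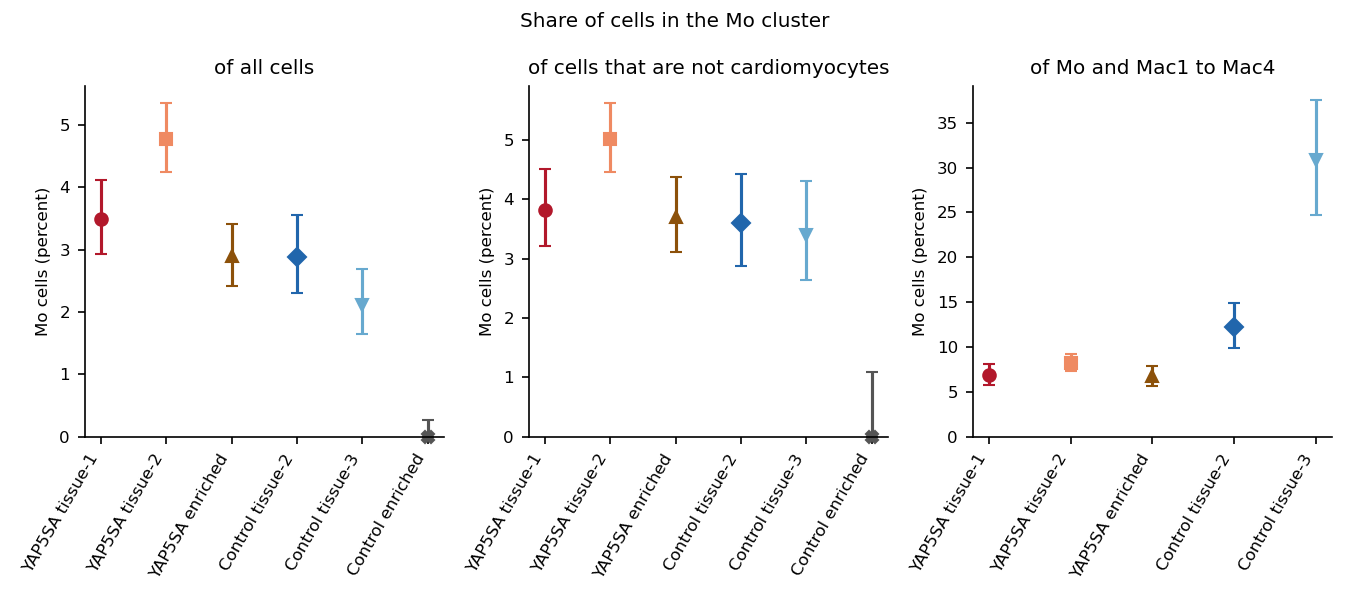
Share of Mo cells in each library, in percent of all cells, of cells that are not cardiomyocytes, and of Mo cells plus macrophages, with 95% Clopper-Pearson intervals (YAP5SA left of Control). Of all cells, Mo cells were 2.89% to 4.78% in YAP5SA and 0% to 2.88% in Control, and of Mo cells plus macrophages, 6.74% to 8.26% in YAP5SA and 12.3% to 30.8% in Control.

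A UMI of the S or G2/M list, 96 genes of these phases, was found in 93.4%, 89.7% and 90.5% of thinned Mo cells of the YAP5SA libraries tissue-1, tissue-2 and enriched, against 83.5% and 75.8% of those of Control tissue-2 and tissue-3. The means were 91.2 ± 1.93% (SD, n = 3) in YAP5SA and 79.7 ± 5.51% (SD, n = 2) in Control. The difference of 11.5 points had p = 0.1 in an exact two-sided permutation test over the 5 libraries regardless of preparation, the smallest that 10 arrangements allow. It was 5.26 points without thinning (exact p = 0.1) and 12.8 points when cells were thinned to 375 UMIs (exact p = 0.2). The same UMIs were found in 72.2%, 72.0% and 74.3% of thinned cardiomyocytes of the YAP5SA libraries and in 69.8% and 45.7% of those of the Control libraries. The shares in Mo cells are read beside this background, which was also lowest in Control tissue-3, and its part in the difference was not tested. The authors' phase calls put 26.1%, 19.3% and 20.5% of YAP5SA Mo cells in G2/M, against 15.5% and 12.1% of Control Mo cells. They put 35.1%, 35.7% and 40.2% in S phase in YAP5SA, against 40.5% and 10.6% in Control. In G1 they put 38.8%, 45.0% and 39.4% in YAP5SA, against 44.0% and 77.3% in Control. The genotypes thus overlap in S and G1 calls, where Control tissue-3 alone stood apart. The calls rest on the same transcripts.

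Between the genotypes, the gene that fell in Mo cells was Apoe, which encodes apolipoprotein E, a lipid carrier that macrophages secrete. Apoe had 995, 789 and 932 CPM (TMM scaling over the Mo sums alone) in Mo cells of the YAP5SA libraries tissue-1, tissue-2 and enriched, against 8741 and 9581 CPM in those of Control tissue-2 and tissue-3. All YAP5SA libraries lay below both Control libraries, with a log2 fold change of -3.34 (SE 0.33, adjusted p = 0.0151 in edgeR's quasi-likelihood test). It was the single call among 3567 genes tested (0.028%), at a Benjamini-Hochberg adjusted p of 0.05, while 338 genes had an unadjusted p below that value (9.48%). With preparation as a term Apoe had a log2 fold change of -3.30 (adjusted p = 0.189 in edgeR), and with library totals in place of TMM scaling one of -3.13 (adjusted p = 0.113), so that both end the call. DESeq2 made 29 calls, 28 of them lower in YAP5SA. The log2 difference was -3.29 between the libraries with joined gene names and -3.35 between those with separate names.

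Apoe was seen in 27.3%, 23.2% and 27.0% of thinned Mo cells of the YAP5SA libraries, against 70.9% and 83.3% of those of the Control libraries. Thinned cardiomyocytes of the same libraries held it at 8.76%, 7.53% and 9.33% in YAP5SA and 8.16% and 8.53% in Control. In thinned fibroblasts the share was less even, from 11.8% to 46.4% over the 5 libraries with a median of 14.8%. In the Mo1 cells alone Apoe had 596, 424 and 577 CPM (without TMM scaling) in YAP5SA libraries and 2317 and 2250.5 CPM in Control libraries, with a log2 fold change of -1.96 (adjusted p = 0.11 in edgeR). In Mo cells from earlier clusters other than Mo1 and Mo2 it had 755, 689.5 and 632 CPM in YAP5SA, against 11859 and 6897 CPM in Control. In Mo2 cells, all of them from YAP5SA, it had 4319, 2231 and 3059 CPM. The call was also lost without YAP5SA tissue-1 (log2 -3.43, adjusted p = 0.813 in edgeR), without YAP5SA tissue-2 (-3.26, 0.585) and without YAP5SA enriched (-3.38, 0.251). With 1 Control library left, the log2 value was -3.30 without Control tissue-2 and -3.27 without Control tissue-3. In these fits, as in every value given here without a Control library, the spread comes from the YAP5SA libraries alone and the lone Control library is assumed to vary like them.

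Macrophages showed the same direction. In the summed macrophages Apoe had 1378, 1196 and 1677 CPM (scaled with the Mo sums) in the YAP5SA libraries tissue-1, tissue-2 and enriched, against 9639 and 15352 CPM in Control tissue-2 and tissue-3. The genotype effect in Mo cells minus that in macrophages was -0.11 log2 units (SE 0.15, adjusted p = 0.974 in edgeR, from the class by genotype term of a fit that blocks on library).

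No other gene passed, and the 9 with the next smallest p all had an adjusted p of 0.281 in edgeR. Among them Il1b had 423, 424 and 337 CPM (TMM scaling over the Mo sums) in YAP5SA Mo cells and 1051 and 1272 CPM in Control Mo cells, without overlap (log2 -1.55, SE 0.31). Fos, a subunit of the AP-1 transcription factor, had 955, 1026 and 647 CPM in YAP5SA and 2327 and 4790 CPM in Control (log2 -2.02, SE 0.41). The chemokine Ccl4 had 337, 217 and 168 CPM in YAP5SA and 720.5 and 1232 CPM in Control (log2 -2.01, SE 0.41). The stress-induced transcription factor Atf3 and the carbonyl reductase Cbr2 had log2 values of -2.78 and -3.41, and Igf1, insulin-like growth factor 1, one of -2.16. Cbr2 was 8.83-fold lower in Mo cells than in macrophages. Igf1 was 9.05-fold lower in Mo cells than in fibroblasts, and had 5 to 17 UMIs in the Mo cells of a library. Eno1, an enolase of glycolysis, was the only one higher, with 394, 330.3 and 453 CPM in YAP5SA and 94.5 and 79.5 CPM in Control (log2 2.14, SE 0.38), and its near-identical copy Eno1b makes its counts uncertain. Actc1, the cardiac actin, was 31.5-fold lower in Mo cells than in cardiomyocytes, and had a log2 value of -2.47. Clu, clusterin, had one of -2.70 at a level in Mo cells 34.0-fold below that of cardiomyocytes.

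**Figure D5:**
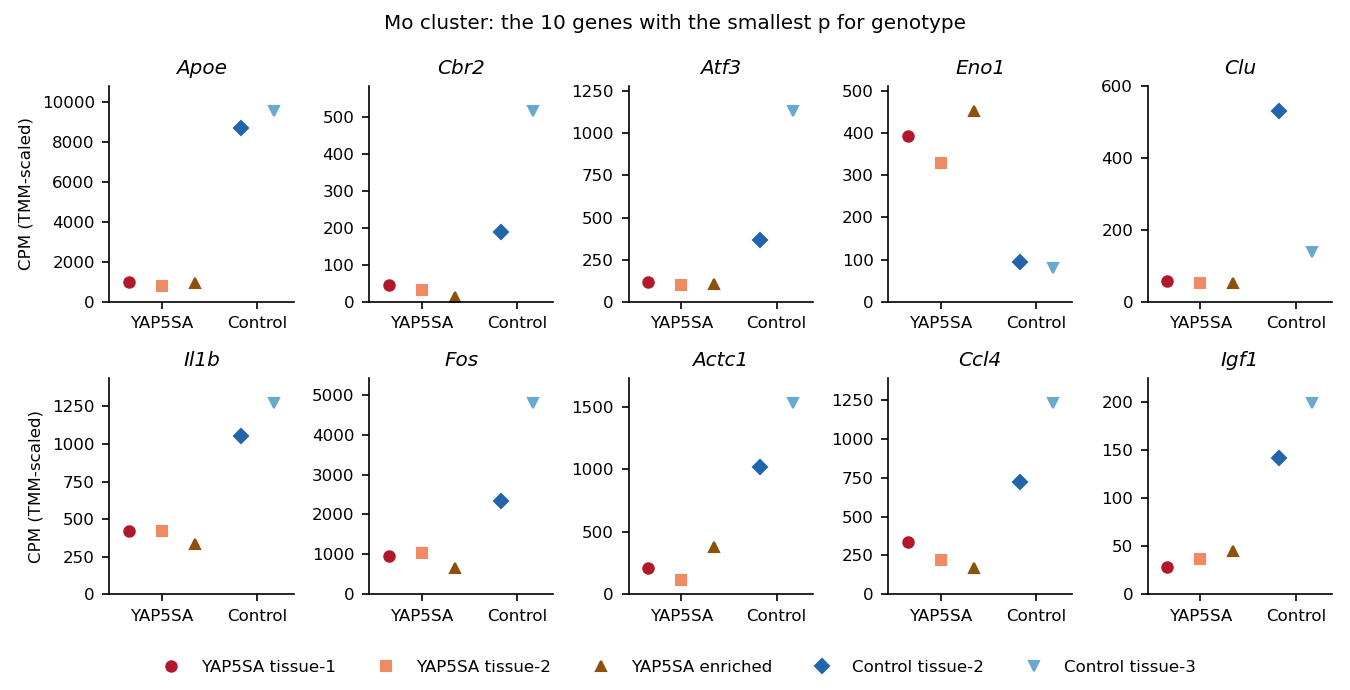
CPM in the Mo cells of each library, with TMM scaling over the Mo sums, for Apoe and other genes named by p (1 point per library, YAP5SA libraries left of Control libraries). Apoe had 789 to 995 CPM in YAP5SA and 8741 and 9581 CPM in Control, and was the only gene with an adjusted p below 0.05 in edgeR.

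The 3 given markers did not pass. Ccr2 had 1400.4, 1347 and 1560 CPM (TMM scaling over the Mo sums) in YAP5SA Mo cells and 1264 and 358 CPM in Control Mo cells (log2 0.80, SE 0.49, adjusted p = 0.666 in edgeR), and without Control tissue-2, when Control tissue-3 stands alone, its log2 value was 2.10. Plac8 had 120.03, 313 and 142 CPM in YAP5SA, overlapping 189 and 0 CPM in Control. Ly6c2 had 91.5, 82.6 and 19.4 CPM in YAP5SA and 35.4 and 0 CPM in Control.

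Lists of genes are described by how many members had all YAP5SA libraries on one side of both Control libraries, which held for 558 of the 3567 genes tested as higher (15.6%) and for 447 as lower (12.5%), around a median log2 fold change of 0.00. The immediate early and stress list, genes switched on within minutes of a stimulus, had 15 of 20 tested members lower, 1 higher, and a median of -1.85. Besides Fos and Atf3, Egr1 had 177, 219.5 and 155 CPM in YAP5SA Mo cells and 343 and 3856 CPM in Control Mo cells (log2 -3.48, SE 0.91). Junb, another AP-1 subunit, had 840.2, 743 and 498 CPM in YAP5SA and 1725 and 3101 CPM in Control (log2 -1.79, SE 0.39). The highest level was that of Control tissue-3 for Fos, Atf3, Egr1 and Junb. The list's median was -0.71 between libraries with joined names and -2.67 between those with separate names, and -0.85 without Control tissue-3.

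Of 17 cytokine and chemokine genes, 7 were lower without overlap and 2 higher, with a median of -0.61. Cxcl2, which attracts neutrophils, had 880.2, 1128 and 984 CPM in YAP5SA Mo cells and 1902 and 4393 CPM in Control Mo cells (log2 -1.65, SE 0.40). Ccl6 and Ccl9 were the higher ones, with log2 values of 1.26 and 1.25. The macrophage markers had 6 of 17 lower and 0 higher, with a median of -0.54, among them Apoe, the folate receptor Folr2 (log2 -2.24), the transcription factor Maf (-1.54) and the platelet factor Pf4 (-1.04).

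The G2/M phase list had 15 of 31 members higher and 1 lower, with a median of 0.69, which was 0.33 between libraries with joined names and 1.26 between those with separate names. Cenpf, a kinetochore protein, had 103, 111 and 188 CPM in YAP5SA Mo cells and 23.6 and 39.8 CPM in Control Mo cells (log2 2.11, SE 0.63, adjusted p = 0.414 in edgeR). Mki67, which marks cycling cells, had 303, 215 and 388 CPM in YAP5SA and 201 and 59.6 CPM in Control (log2 1.10, SE 0.50). The S phase list had 4 of 22 higher and 1 lower, with a median of 0.37 that was 1.46 without Control tissue-2 and -0.07 without Control tissue-3. Interferon response genes had 4 of 18 higher and 0 lower, with a median of 0.51 that was 1.30 without Control tissue-2 and 0.24 without Control tissue-3. Of these, Ifi27l2a had 1286, 1591 and 1023 CPM in YAP5SA and 779.6 and 676 CPM in Control.

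MHC class II, the group that marked the cells, had 1 of 9 members higher and 3 lower, with a median of -0.24. H2-Eb1 had 1800.5, 1806 and 1741 CPM (TMM scaling over the Mo sums) in YAP5SA Mo cells and 2351 and 3339 CPM in Control Mo cells (log2 -0.67, SE 0.32, adjusted p = 0.569 in edgeR), and H2-Aa and H2-Ab1 lay on the same side. H2-DMb2 was the higher one (log2 1.12, SE 0.52). With library totals in place of TMM scaling, which raises the median of all genes to 0.19, the median of this list was 0.03. MHC class I genes had 4 of 11 higher and 1 lower, with a median of 0.14 (0.35 without Control tissue-2 and 0.43 without Control tissue-3), among them the immunoproteasome subunit Psmb8 with 577, 595 and 589 CPM in YAP5SA and 354 and 239 CPM in Control (log2 0.97, SE 0.34).

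Nuclear genes of oxidative phosphorylation had 6 of 33 members lower and 1 higher, with a median of -0.37 that was 0.04 without Control tissue-3. Genes of the actin cytoskeleton and migration had 5 of 26 higher and 0 lower, with a median of 0.26 that was 0.92 without Control tissue-2 and -0.07 without Control tissue-3. S100, annexin and galectin genes had 4 of 19 higher and 0 lower, with a median of 0.18 that was 0.52 without Control tissue-2 and 0.00 without Control tissue-3. Lysosome genes had 2 of 20 higher and 4 lower, with a median of -0.12 that was 0.66 without Control tissue-2 and -0.39 without Control tissue-3. Without Control tissue-2 the median of all genes was itself 0.22. Known YAP target genes had 5 tested members, of which 0 stood apart in either direction (median -0.57, and 0.15 without Control tissue-3). Among these Cyr61, a secreted matrix protein, had 80.02, 32.6 and 6.47 CPM in YAP5SA Mo cells and 47.2 and 1133 CPM in Control Mo cells, and Axl, a receptor for Gas6, had 74.3, 130.4 and 104 CPM in YAP5SA and 70.9 and 417 CPM in Control.

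Several other values moved with the genotype beside these lists. Cardiomyocyte markers had 7 of 10 members lower in YAP5SA Mo cells, with a median log2 of -2.50 that was -0.95 without Control tissue-3. Their sum was 2761, 1086 and 3311 CPM (without TMM scaling) in Mo cells of the YAP5SA libraries tissue-1, tissue-2 and enriched and 4794 and 12921 CPM in those of Control tissue-2 and tissue-3, with all 11 markers detected, and macrophages of the same libraries had 2800, 954 and 3281 CPM in YAP5SA and 4221 and 12169 CPM in Control. The summed fibroblast markers given above were highest in Control tissue-3, and their median log2 was -1.84 over all libraries and -0.44 without Control tissue-3. Neutrophil markers summed to 10.5, 43.2 and 68.5 CPM in YAP5SA Mo cells and 32.0 and 378 CPM in Control Mo cells, with S100a9, Csf3r and Camp at 0. The part of free RNA, of other cells in the droplets, and of the mitochondrial share of Control tissue-3 in the genotype differences was not tested.

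To ask where the genotype effect in Mo cells differed from that in macrophages, the class by genotype term was tested over 6749 genes, and 27 passed in edgeR (0.4%), with the effect more positive in Mo cells for 16 (0.237%) and more negative for 11 (0.163%). The largest positive term was that of Mmp12, macrophage elastase, at 3.09 log2 units (SE 0.53, adjusted p = 8.63e-05). Mmp12 had 215, 308 and 612 CPM (Mo and macrophage sums scaled together for this model) in YAP5SA Mo cells and 64.0 and 178 CPM in Control Mo cells, against 11.02, 15.9 and 19.6 CPM in YAP5SA macrophages and 52.7 and 0 CPM in Control macrophages. Of its 5 macrophage values, the highest was thus that of Control tissue-2, and without that library the term was -6.63 (adjusted p = 0.683 in edgeR). The term of Mmp12 also did not pass without YAP5SA tissue-1 (3.13, adjusted p = 0.481 in edgeR) or without YAP5SA tissue-2 (3.21, 0.171). Spp1, osteopontin, had 1906, 5786 and 8435 CPM in YAP5SA Mo cells and 9701 and 0 CPM in Control Mo cells, against 993, 2778 and 3238 CPM in YAP5SA macrophages and 10601 and 7.88 CPM in Control macrophages. The term for Spp1 was 1.27 (SE 0.18, adjusted p = 5.32e-09 in edgeR), while the YAP5SA and Control ranges of Spp1 overlap in both kinds of cell. Without Control tissue-2, which leaves Control Mo cells with 0 UMIs of Spp1, it did not pass (adjusted p = 0.713).

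Cd36, a scavenger receptor and fatty acid transporter, had 504, 702 and 606 CPM in YAP5SA Mo cells and 139 and 485 CPM in Control Mo cells, against 424, 579 and 506 CPM in YAP5SA macrophages and 341 and 852 CPM in Control macrophages. Its term was 1.26 (SE 0.25, adjusted p = 0.000441 in edgeR), and did not pass without YAP5SA tissue-1 (1.25, adjusted p = 0.0723) or without YAP5SA tissue-2 (1.19, 0.0541). The list of genes associated with tissue repair held 6 of the 27, Cd36, Fabp4, Fn1, Lpl, Mmp12 and Spp1, out of 24 tested, with a median term of 0.44 against 0.06 over all genes. Not all of them were higher in YAP5SA Mo cells. Fabp4 had 205, 249.5 and 226 CPM in YAP5SA Mo cells and 342 and 1649 CPM in Control Mo cells, against 109.9, 103 and 191 CPM in YAP5SA macrophages and 266 and 2090 CPM in Control macrophages. Lpl had 646, 465 and 893 CPM in YAP5SA Mo cells and 587 and 1067 CPM in Control Mo cells, against 253, 200.04 and 302 CPM in YAP5SA macrophages and 406 and 741 CPM in Control macrophages. For both genes every YAP5SA library lay below both Control libraries in macrophages, and for Lpl the ranges overlap in Mo cells. These 6 encode lipid handling proteins (Cd36, Fabp4, Lpl), the matrix proteins fibronectin and osteopontin (Fn1, Spp1) and a protease (Mmp12). Fabp4 is also on the list of endothelial markers. With Fabp4 included, that list summed to 347, 355 and 297 CPM (without TMM scaling) in YAP5SA Mo cells and 470 and 1993 CPM in Control Mo cells. In macrophages it summed to 178, 167 and 277 CPM in YAP5SA and 377 and 2256 CPM in Control. The part of endothelial RNA in Fabp4 was not tested. Pla2g7, a phospholipase that inactivates platelet-activating factor, had 268, 237 and 189.6 CPM in YAP5SA Mo cells and 245 and 194 CPM in Control Mo cells, against 60.6, 90.1 and 85.4 CPM in YAP5SA macrophages and 201 and 284 CPM in Control macrophages. Its term was 1.58 (SE 0.33, adjusted p = 0.00252 in edgeR), and the genotypes overlap in Mo cells but not in macrophages. Pla2g7 did not pass without YAP5SA tissue-1 (adjusted p = 0.389 in edgeR), YAP5SA tissue-2 (0.0886) or Control tissue-3 (0.19).

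On the negative side, Cxcl10, a chemokine induced by interferon, had 5.25, 38.5 and 0 CPM in YAP5SA Mo cells and 117 and 32.3 CPM in Control Mo cells, against 59.0, 68.9 and 41.9 CPM in YAP5SA macrophages and 41.8 and 7.88 CPM in Control macrophages. Its term was -2.99 (SE 0.70, adjusted p = 0.011 in edgeR), and the ranges of YAP5SA and Control overlap in Mo cells. It did not pass without YAP5SA tissue-1 (-2.73, adjusted p = 0.418 in edgeR) or without Control tissue-2 (-3.44, 0.564). Cbr2, an enzyme high in resident macrophages, had 42.0, 30.4 and 12.2 CPM in YAP5SA Mo cells and 171 and 420.4 CPM in Control Mo cells, against 638, 516 and 489 CPM in YAP5SA macrophages and 801 and 1711 CPM in Control macrophages (term -2.08, SE 0.35, adjusted p = 1.78e-05). Both kinds of cell had less Cbr2 in every YAP5SA library than in either Control library, and without Control tissue-3 its term was -1.93 (adjusted p = 0.0791). Lyve1, with 226 CPM in Mo cells of Control tissue-3 and 5.25 to 18.3 CPM in those of the other 4 libraries, had a term of -2.26 (SE 0.55, adjusted p = 0.028), and without Control tissue-3 it was -0.80 (adjusted p = 0.951 in edgeR). Apold1 and Igfbp4, with terms of -1.94 and -1.50, were likewise highest in Mo cells of Control tissue-3, and their terms were -1.20 and -0.37 without it (adjusted p = 0.815 and 0.954). Lyve1 also did not pass without YAP5SA tissue-1 (adjusted p = 0.478 in edgeR) or YAP5SA enriched (0.225). Without YAP5SA tissue-1 or YAP5SA tissue-2, neither Apold1 (0.418 and 0.476) nor Igfbp4 (0.621 and 0.171) passed. In the Mo1 cells alone the terms of Lyve1, Cbr2 and Igfbp4 turned positive and did not pass, while those of Mmp12, Spp1 and Cd36 remained past the threshold at 3.09, 2.67 and 2.45.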

How the data were processed

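Per the submitters' processing notes, the tools were Picard, STAR and Seurat 2.3.4, and settings, build and annotation are not given in the sources used here. The authors deposited raw UMI counts per gene and cell, and a table of cells with library, cluster, earlier cluster, phase call, cell cycle score and the fraction of UMIs on mitochondrial genes (printed here as a percent). Deposited cell cycle scores and scaled values were not used.

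Joined names of overlapping genes were put together with the genes they join, which left 21277 features in all, 708 of them merged, and 1219 features counted under only 1 way of annotation were not tested. Counts of Mo cells, and of Mac1 to Mac4 together, were summed per library with at least 10 Mo cells. Sums were fitted with edgeR 4.0.16 (in R 4.3.3, with filterByExpr, TMM factors, genotype as the only term and the quasi-likelihood F test) at a Benjamini-Hochberg adjusted p of 0.05, and checked on simulated counts. The difference from macrophages was the class by genotype term with library as a block. Log2 ratios of Mo cells over macrophages used a prior count of 2, scaled by edgeR to the size of each sum. Positive values mean higher in YAP5SA, or in Mo cells against macrophages. Shares were compared with exact permutation tests, and thinning to 750 UMIs kept at least 90.3% of the Mo cells of each library. No replicate block was possible, and preparation was not a term because Control enriched held no Mo cells.

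Genes were named by a rule. For genotype, these were the largest and smallest changes among genes called, completed to the 10 smallest p because fewer than 10 passed, the 2 smallest p of each pathway list, and the 3 markers. For the difference from macrophages, they were the 5 largest and 5 smallest terms among genes called, of which 1 is not reported here. For levels, they were the 15 highest and 15 lowest by the weakest library, and the marker lists. Other members of lists, and other genes past 2-fold in every library, were named with their values in view. The cell type, lists and patterns in promoters were chosen with earlier results of these data known. Alternatives were RLE factors, library totals, DESeq2 1.42.0, no filter on low counts, other terms, tissue libraries alone, other sets of cells, and each library left out. Those using Mo1 cells alone, or leaving out genes over 5-fold below another class, were chosen after seeing the data, as was leaving out libraries for levels.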

Additional observations from a re-analysis of the deposited data

Results flagged for a closer look

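With no library left out, the class by genotype term passed the threshold for the genes named here from that comparison. The values are log2 differences of the YAP5SA minus Control effects, Mo cells minus macrophages. The genotype effect was more negative in Mo cells for Cxcl10 (-2.99), Lyve1 (-2.26), Cbr2 (-2.08), Apold1 (-1.94) and Igfbp4 (-1.50). It was more positive in Mo cells for Mmp12 (3.09), Pla2g7 (1.58), Spp1 (1.27) and Cd36 (1.26). Lyve1, Cbr2, Apold1 and Igfbp4 had their highest level in Mo cells of Control tissue-3, and Spp1 had 0 UMIs there. Cxcl10, Lyve1, Apold1, Igfbp4, Mmp12, Pla2g7 and Cd36 each failed to pass in a fit with a YAP5SA library left out. The term of Mmp12 turned negative without Control tissue-2. Those of Lyve1, Cbr2 and Igfbp4 turned positive with Mo1 cells alone.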

How the results depend on the processing

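No paired analysis was possible because the titles number the YAP5SA tissue libraries 2 and 3 while the file numbers them 1 and 2, so that only their group is known. The single genotype call became 0 calls with library totals, with preparation as a term, with tissue libraries alone and with Mo1 cells alone, 29 with DESeq2 and 185 with no filter on low counts. Leaving out each library gave 0 to 282 calls (282 without Control tissue-2, 10 without Control tissue-3, 0 without any of the YAP5SA libraries) and 3 to 62 for the difference from macrophages, against 27. Genes 2-fold higher in Mo cells numbered 15 and lower ones 222 with Mo1 cells alone, and 19 to 37 and 91 to 170 with each library left out (120 without Control tissue-2, 170 without Control tissue-3). The difference in share of all cells was 1.22 to 2.66 points with each library left out, and turned to -14.3 against macrophages. The difference in cells with a cell cycle UMI was 7.66 to 15.4 points.

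Of 748 values for 46 genes named for genotype, 744 kept their direction. Those that reversed were Clec4a1 (0.79 without Control tissue-2, down to -1.70 without Control tissue-3), S100a1 (0.20 without Control tissue-3, down to -1.75 without Control tissue-2) and Axl (0.59 without Control tissue-3, 0.12 with Mo1 cells alone, down to -1.86 without Control tissue-2). Of 110 values for the 10 genes named for the difference from macrophages, 106 kept it. The exceptions were Mmp12 (-6.63 without Control tissue-2, up to 4.24 without Control tissue-3) and, with Mo1 cells alone, Lyve1 (7.89), Cbr2 (0.65) and Igfbp4 (1.64). The causes were not tested. Most of these genes were chosen by p or by size in the same counts, which the alternatives largely reuse, so that a kept direction is not independent support. Requiring at least 30 Mo cells in each library repeats the main fit. Using tissue libraries alone repeats the fit without YAP5SA enriched. A fit with Control enriched could not be made, since it holds no Mo cells. With 66 to 280 Mo cells a library, genes at a few UMIs cannot show a difference at this depth.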

Other observations

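Ribosomal protein genes, taken by symbol, had 15 of 88 members with all YAP5SA libraries above both Control libraries in Mo cells and 1 below, beside 15.6% and 12.5% of all genes tested, with a median log2 of 0.24 that was 0.03 without Control tissue-2 and 0.69 without Control tissue-3.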
